A study of Mus musculus with 6 samples.

Results

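Schwann cells are the glia of peripheral nerves. They derive from the neural crest under the transcription factor gene Sox10, and they either wrap large axons in myelin or ensheath small axons without it. Compact myelin holds the membrane proteins encoded by Mbp and Pmp22. Mag encodes an adhesion protein on the myelin membrane that faces the axon, and Prx encodes periaxin, which anchors the outer surface of the sheath. The wall of the aortic root carries autonomic nerve fibres in its outer layer, so a bulk RNA sample of the root includes their glia.

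The 8 Schwann cell and myelin genes described here are Prx, Mbp, Pmp22, Mag, Sox10, S100b, Cdh19 and Ngfr, taken by symbol from a count table of 23420 genes. All 8 were present and all 8 passed the filter on low counts. They were split by role into Mag, Sox10 and Cdh19, which are largely restricted to glia or other neural crest derivatives, and Prx, Mbp, Pmp22, S100b and Ngfr, which other cells also express. Sox10 is also a melanocyte gene, Prx is known from endothelium, Pmp22 from fibroblasts and epithelia, S100b from fat cells and cartilage, and Ngfr from mesenchymal cells. Mbp shares its locus with longer transcripts used in lymphoid cells.

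The libraries came from 3 aortic roots labelled Sost-/- and 3 labelled Sost+/+, all from C57BL6/J mice aged 12 months. Both groups had moved at 4 months from standard chow to a diet high in cholesterol and stayed on it for 8 months. Roots were snap frozen. The labels number 3 roots per genotype without naming separate animals, and a p-value here reflects only the variation among those roots, which may be technical. Sost encodes sclerostin, a secreted Wnt antagonist.

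Total counts ran from 37023586 to 48172863 per library. The targeted gene goes against the labels: Sost had 2284, 1063 and 513 counts in the libraries labelled Sost-/-, against 354, 621 and 274 in those labelled Sost+/+. Counts per gene do not show which part of the gene the reads came from. Below, Sost-/- and Sost+/+ name the library labels only, and every direction is that of the labels. Summed levels of smooth muscle and heart muscle markers also separated the groups. Summed CPM (counts scaled by TMM library size to a common total) of 10 smooth muscle markers was 4080 to 6130 in the libraries labelled Sost-/- and 1390 to 2730 in those labelled Sost+/+, and 8 of the 10 passed the test as higher. For 14 cardiomyocyte markers the sums were 60000 to 74900 CPM and 90100 to 97700 CPM in the same order of groups. Of the 14, 1 (Nppb) passed as lower, and 10 were lower without overlap, where 11.1% of all tested genes were. Myh6, the most abundant of the 14, had a mean of 31100 CPM and did not pass. In bulk tissue, fewer cells of a type and less RNA per cell cannot be told apart, and the part of this shift in the results below was not tested. The genotype test was edgeR's quasi-likelihood test with Benjamini-Hochberg adjustment over 15096 genes, of which 385 (2.55%) passed at 0.05, 329 higher (2.18%) and 56 lower (0.371%) in Sost-/-. Gene positions are those of GENCODE M21 on build mm10.

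All 8 genes had a log2 fold change above 0 (Sost-/- over Sost+/+), and 1 of them, Prx, passed the test. Over all tested genes, 51.3% had a value above 0. The median log2 fold change was 0.37 over the 8 genes, 0.23 over the 3 glia-restricted ones, 0.51 over the 5 shared ones and 0.01 over all tested genes. Groups did not overlap in Prx, Mbp, Cdh19 and Sox10, all higher in Sost-/-, and the gap in Sox10 was smaller than the rounding of its CPM. Thus 4 of the 8 were higher and 0 lower without overlap, where 14.3% of all tested genes were higher and 11.1% lower without overlap. Replicate 2 or replicate 3 of Sost-/- held the highest level of 7 genes, and replicate 3 of Sost+/+ held the lowest level of 4.

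**Figure D1:**
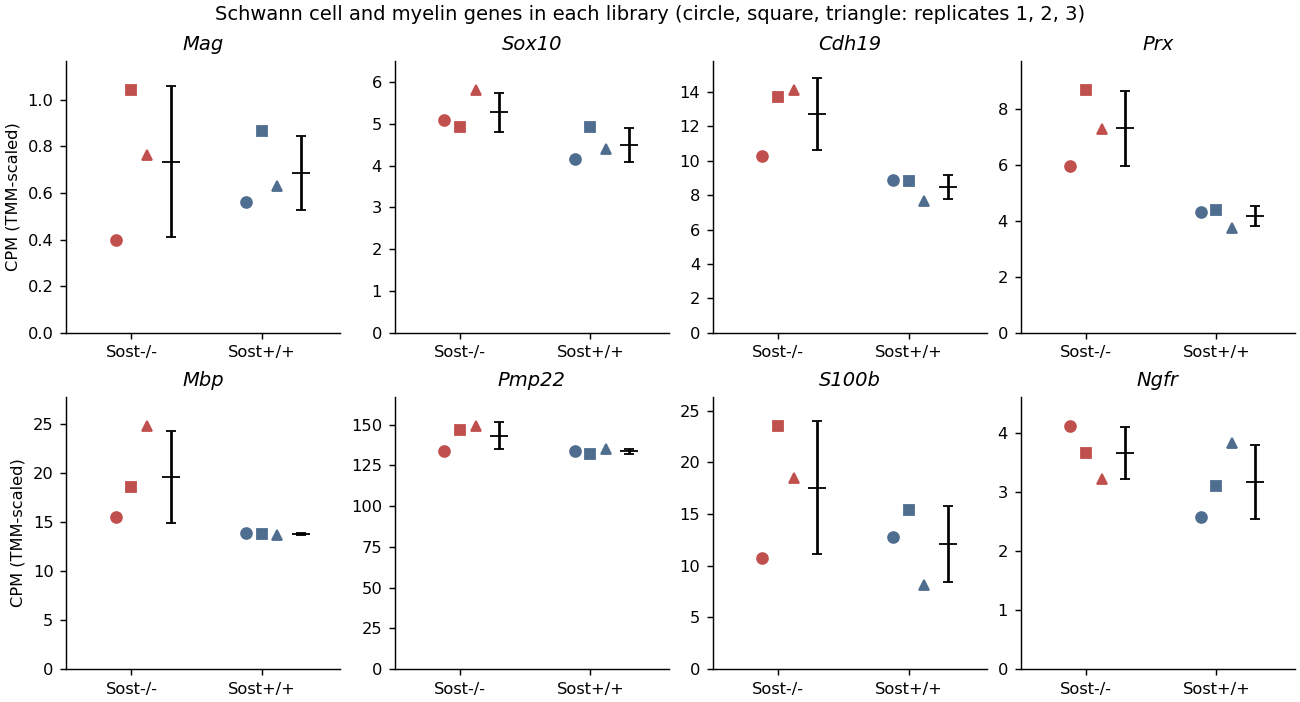
Level of each of the 8 genes in CPM (TMM-scaled, vertical axes from 0) in the 3 Sost-/- libraries (red) and the 3 Sost+/+ libraries (blue), with the mean and SD of each group in black. The groups stand clear of each other in Prx, Cdh19 and Mbp, while Mag, Pmp22, S100b and Ngfr overlap and in Sox10 they meet at 4.93 CPM.

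Promoter windows of 300 bases across a transcription start site, most of each lying upstream, come from RefSeq (build GRCm38.p6) and were matched by symbol for 5 of the 8 genes, in 10 entries. Prx is shown because it alone passed the test, Mag because its window holds a SOX core, and the first and last of 4 Pmp22 windows because this gene has several start sites, whose transcripts a count per gene adds together.
Prx, chr7:27499074-27499373, plus strand: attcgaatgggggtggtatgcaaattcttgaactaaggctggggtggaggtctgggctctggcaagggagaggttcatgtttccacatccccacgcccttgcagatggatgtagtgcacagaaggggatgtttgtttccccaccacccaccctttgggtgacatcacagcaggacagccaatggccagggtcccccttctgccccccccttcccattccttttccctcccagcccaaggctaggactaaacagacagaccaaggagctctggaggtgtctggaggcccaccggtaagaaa
Mag, chr7:30914814-30915113, minus strand: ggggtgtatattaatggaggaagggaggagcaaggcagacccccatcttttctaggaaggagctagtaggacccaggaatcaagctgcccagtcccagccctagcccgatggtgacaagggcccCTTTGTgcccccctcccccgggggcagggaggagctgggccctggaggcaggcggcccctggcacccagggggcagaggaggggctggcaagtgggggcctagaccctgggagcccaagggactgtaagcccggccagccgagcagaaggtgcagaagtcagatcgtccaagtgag
Pmp22, first window, chr11:63128732-63129031, plus strand: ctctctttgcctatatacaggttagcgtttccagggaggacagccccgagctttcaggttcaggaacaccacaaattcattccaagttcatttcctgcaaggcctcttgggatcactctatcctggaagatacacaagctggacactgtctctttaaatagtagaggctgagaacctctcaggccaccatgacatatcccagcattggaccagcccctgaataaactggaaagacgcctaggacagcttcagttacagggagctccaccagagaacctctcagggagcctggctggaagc
Pmp22, last window, chr11:63132553-63132852, plus strand: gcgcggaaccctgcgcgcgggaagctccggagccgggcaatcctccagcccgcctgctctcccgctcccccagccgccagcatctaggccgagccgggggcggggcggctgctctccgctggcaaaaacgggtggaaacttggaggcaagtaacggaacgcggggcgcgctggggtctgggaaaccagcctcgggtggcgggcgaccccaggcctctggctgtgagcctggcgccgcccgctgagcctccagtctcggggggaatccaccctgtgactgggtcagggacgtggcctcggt
The capitals in Mag mark CTTTGT, the reverse complement of the SOX core ACAAAG. This motif, searched on both strands, stood in 18.7% of 32851 RefSeq windows of the same length, the SOX core ACAATG in 12.6% and the EGR core GTGGGCG in 7.97%. Among the 10 entries, 2 overlapping Mag windows held the ACAAAG match and no entry held either of the other motifs. The first and last Pmp22 windows differed in base composition, with 50.7% and 72.3% G and C. These matches describe letters, and no readout here bears on binding.

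Among the myelin genes, Prx rose in Sost-/-. Its level was 5.96, 8.66 and 7.26 CPM in the Sost-/- libraries, against 4.33, 4.40 and 3.76 CPM in the Sost+/+ libraries. Each Sost-/- library lay above each Sost+/+ library, with replicate 1 the closest. The means were 7.29 ± 1.35 and 4.16 ± 0.35 CPM (SD, n = 3 each), a log2 fold change of 0.81 (SE 0.17, edgeR adjusted p = 0.0479). Prx (ENSMUSG00000053198.13) spans chromosome 7 from 27499324 to 27520214 on the plus strand, and 300 of its 5579 exon bases also lie in the antisense gene Gm15541. The call is close to the threshold, and Prx passed in 8 of 14 alternatives. In the others, the edgeR adjusted p was 0.122 without Sost-/- replicate 2, 0.186 without Sost-/- replicate 3 and 0.160 without Sost+/+ replicate 1. It was 0.0868 without Sost+/+ replicate 2 and 0.0913 without Sost+/+ replicate 3, and 0.0595 in limma-voom. Of all tested genes, 10 passed without Sost-/- replicate 3 and 0 without Sost+/+ replicate 1.

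Mbp, which encodes myelin basic protein, followed the same order of groups without passing. The gene (ENSMUSG00000041607.17) spans chromosome 18 from 82475146 to 82585637 on the plus strand, with 16 annotated transcripts. It had 15.5, 18.6 and 24.8 CPM in the Sost-/- libraries and 13.9, 13.8 and 13.7 CPM in the Sost+/+ libraries. The Sost+/+ libraries were nearly equal, with a coefficient of variation of 0.758%, against 24.2% in Sost-/-. The log2 fold change was 0.51 (SE 0.16, edgeR adjusted p = 0.129, 95% interval 0.15 to 0.87). T and B lymphocyte markers, which could accompany the longer transcripts of the locus, had 9 of 9 log2 fold changes below 0, and none passed. Their summed level was 17.2 to 23.6 CPM in Sost-/- and 19.9 to 47.5 CPM in Sost+/+.

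Mag, the most myelin-restricted of the 8, was also the scarcest. The gene (ENSMUSG00000036634.15) spans chromosome 7 from 30899176 to 30914873 on the minus strand. It had 17, 42 and 32 counts in the Sost-/- libraries and 25, 34 and 23 in the Sost+/+ libraries. The groups overlapped, and the lowest and the highest libraries were both Sost-/-. A count of 17 has an exact 95% Poisson interval of 9.90 to 27.2, which covers counting error only. The log2 fold change was 0.09 with a 95% interval of -0.81 to 1 (edgeR adjusted p = 0.921), and the log2 fold change fitted for Prx lies inside that interval.

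Pmp22 varied least among the 8. The gene (ENSMUSG00000018217.12) spans chromosome 11 from 63128982 to 63159547 on the plus strand. Its level was 134, 147 and 149 CPM in Sost-/- and 134, 132 and 135 CPM in Sost+/+. Replicate 1 of Sost-/- lay inside the Sost+/+ range and the other two lay above it. The log2 fold change was 0.10 (SE 0.08, edgeR adjusted p = 0.529), and its 95% interval of -0.09 to 0.29 lay below the fitted value of Prx. Fibroblast markers, from cells that also express Pmp22, had summed levels of 4800 to 5620 CPM in Sost-/- and 4260 to 4620 CPM in Sost+/+, with 0 of 8 passing. Of the 8, 7 had a log2 fold change above 0 (median 0.27). Without overlap, 3 of the 8 were higher in Sost-/-, where 14.3% of all tested genes were. The part of fibroblasts in the Pmp22 values was not tested.

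Of the genes of glial identity, Cdh19 differed most. It encodes a cadherin found on Schwann cells and their precursors, and the gene (ENSMUSG00000047216.8) spans chromosome 1 from 110888326 to 110977584 on the minus strand. The Sost-/- libraries had 10.3, 13.7 and 14.1 CPM and the Sost+/+ libraries 8.90, 8.85 and 7.66 CPM, with no overlap. The log2 fold change was 0.58 (SE 0.15), and the edgeR adjusted p of 0.0791 missed the threshold. DESeq2, which called 7.98% of all tested genes, called it (adjusted p = 0.0142), as did edgeR without Sost-/- replicate 1 (adjusted p = 0.0378) and with total count scaling (adjusted p = 0.0330).

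Sox10, the transcription factor gene that Schwann cells need at every stage, differed less. The gene (ENSMUSG00000033006.10) spans chromosome 15 from 79154908 to 79165240 on the minus strand. Its level was 5.09, 4.93 and 5.80 CPM in Sost-/- and 4.15, 4.93 and 4.39 CPM in Sost+/+, so that the groups met at 4.93. The log2 fold change was 0.23 (SE 0.15, edgeR adjusted p = 0.429). Melanocytes also use Sox10: their pigment genes Pmel, Dct and Mlana were measured, 0 of 8 tested markers passed, 6 had a log2 fold change above 0, and the median was 0.60. The marker sum was 68.3 to 97.0 CPM in Sost-/- and 79.2 to 81.3 CPM in Sost+/+, most of it from Mitf and Dct, whose log2 fold changes were -0.07 and 0.04. Tyr had the smallest p of the list (log2 fold change 1.68, edgeR adjusted p = 0.24). Tyrp1, Slc45a2, Mlana, Pmel and Kit had log2 fold changes of 1.03, 0.73, 0.63, 0.58 and -0.01. The groups overlapped in each of these markers. Oligodendrocytes, the myelin cells of the brain and spinal cord, share Sox10 and Mbp. Of 8 listed markers of that cell type, Sox10 alone passed the filter on low counts. Mobp, Opalin and Olig2 were at 0 in all 6 libraries, where 0 counts allow up to 0.0824 CPM in the shallowest library. Olig1 was detected, with 10, 26 and 15 counts in Sost-/- and 1 count in each Sost+/+ library.

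S100b, which encodes a calcium-binding protein used as a Schwann cell stain, had the widest range of the 8, with a 2.89-fold difference between its highest and lowest library. The gene (ENSMUSG00000033208.7) spans chromosome 10 from 76253853 to 76261159 on the plus strand. It had 10.7, 23.5 and 18.5 CPM in Sost-/- and 12.8, 15.4 and 8.13 CPM in Sost+/+. The groups overlapped, since replicate 1 of Sost-/- lay below 2 of the Sost+/+ libraries. The log2 fold change was 0.53 (SE 0.29, edgeR adjusted p = 0.343). The sum of fat cell markers ordered the libraries almost in the same way. It was 655, 1470 and 1040 CPM in Sost-/- and 887, 815 and 499 CPM in Sost+/+, and only the first 2 Sost+/+ replicates changed places. Single markers differed in this. Adipoq, Plin1, Cidec and Lep were higher in Sost-/- replicate 1 than in Sost+/+ replicate 2, whereas Fabp4, Cfd, Retn, Ucp1 and Lipe were lower there, as S100b was. All 9 fat cell markers had a log2 fold change above 0 (median 1.37) and none passed. Fabp4 gave the largest part of the sum and had a log2 fold change of 0.14. Of 9 tested cartilage markers, another source of S100b, 1 passed as higher (Acan, the aggrecan gene), where 2.18% of all tested genes did. The part of fat or cartilage in the S100b values was not tested. The gene Dip2a overlaps S100b on the opposite strand but shares 0 exon bases with it.

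**Figure D2:**
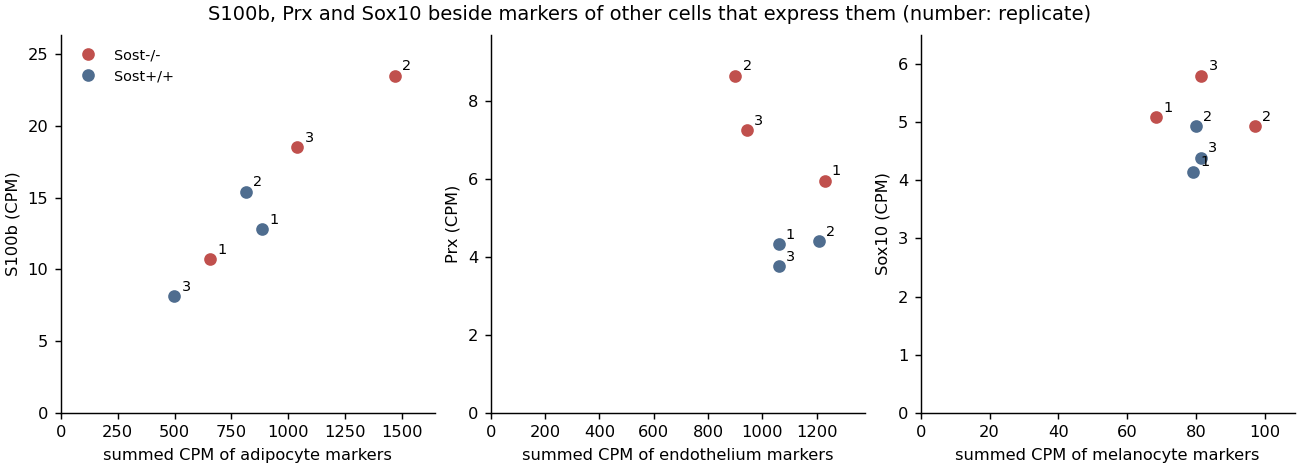
Level in CPM of S100b, Prx and Sox10 (vertical axes) against the summed CPM of fat cell, endothelial and melanocyte markers (horizontal axes), 1 point per library, Sost-/- in red and Sost+/+ in blue, numbered by replicate. S100b is highest (23.5) where fat cell markers are highest (1470). The Sost-/- library with the most Prx (8.66) has the lowest endothelial sum (901). The Sost+/+ library with the most Prx (4.40) has the highest endothelial sum of its group (1210).

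Ngfr encodes the low-affinity neurotrophin receptor of immature and non-myelinating Schwann cells. The gene (ENSMUSG00000000120.6) spans chromosome 11 from 95568818 to 95587735 on the minus strand. It had 4.11, 3.65 and 3.22 CPM in Sost-/- and 2.58, 3.10 and 3.82 CPM in Sost+/+, overlapping, with a log2 fold change of 0.21 (SE 0.20, edgeR adjusted p = 0.591). It was the only one of the 8 whose highest level lay in replicate 1 of Sost-/-.

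Endothelial markers were measured beside Prx because endothelium can express it. Of 10 such markers, 1 had a log2 fold change above 0 and 0 passed. Their summed level was 1230, 901 and 943 CPM in Sost-/- and 1060, 1210 and 1060 CPM in Sost+/+. Replicate 2 had the most Prx in both groups (8.66 CPM in Sost-/- and 4.40 CPM in Sost+/+). Its endothelial sum was the lowest of the Sost-/- libraries and the highest of the Sost+/+ libraries. The part of endothelium in the Prx values was not tested.

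**Figure D3:**
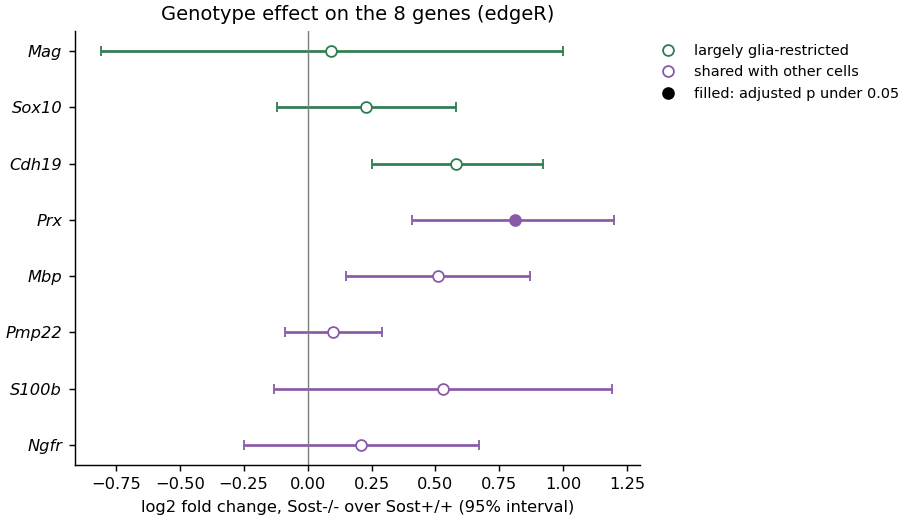
Log2 fold change of each gene, Sost-/- over Sost+/+, with its 95% interval from the edgeR fit (horizontal axis). Green marks the 3 largely glia-restricted genes, purple the 5 shared ones, and Prx, filled, is the 1 with an adjusted p under 0.05. All 8 points lie above 0, and the intervals of Cdh19, Prx and Mbp do not reach 0.

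Each shared gene was also set against glia within its own library, as its log2 CPM minus the mean log2 CPM of Mag, Sox10 and Cdh19. For Prx this log2 ratio was 1.06, 1.05 and 0.85 in Sost-/- and 0.62, 0.37 and 0.42 in Sost+/+, a difference of 0.52 without overlap. The exact two-sided permutation p was 0.1, the smallest that 3 against 3 libraries allow, and 0.5 after Benjamini-Hochberg adjustment over the 5 ratios. The differences were 0.21 for Mbp, 0.23 for S100b, -0.06 for Ngfr and -0.17 for Pmp22, with exact permutation p from 0.2 to 0.8. The Prx difference moved to 0.39 without Mag and to 0.66 without Cdh19 in the mean.

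Per kilobase of exon, the 8 genes covered a wide range of levels. Pmp22 stood first, with 60.9 ± 3.40 CPM per kb in Sost-/- and 56.7 ± 0.55 in Sost+/+ (SD, n = 3 each), followed by S100b with 11.8 ± 4.36 and 8.17 ± 2.50 in the same order of groups. Cdh19 (2.97 ± 0.487 and 1.98 ± 0.164), Mbp (2.32 ± 0.560 and 1.63 ± 0.0124) and Sox10 (1.73 ± 0.151 and 1.47 ± 0.132) came next in CPM per kb, Sost-/- before Sost+/+. Prx had 1.31 ± 0.242 in Sost-/- and 0.746 ± 0.0628 in Sost+/+, and Ngfr 1.06 ± 0.129 and 0.919 ± 0.180. Mag was last, at 0.180 ± 0.0787 and 0.168 ± 0.0391. The ranges of mean ± SD of neighbours in this order met for Cdh19 and Mbp, for Mbp and Sox10 and for Prx and Ngfr in Sost-/-, and for Prx and Ngfr alone in Sost+/+, where Ngfr had the higher mean. All other neighbours lay farther apart than their summed SDs in both groups.

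No other peripheral myelin gene passed the edgeR test. Of 26 listed genes 22 were tested, 0 rose and 0 fell, 17 had a log2 fold change above 0 (51.3% of all tested genes did), and the median was 0.26. Without overlap, 7 of the 22 were higher in Sost-/- and 0 lower, where 14.3% and 11.1% of all tested genes were. DESeq2 called 2 of the 22 as higher, Gldn among them, where it called 771 of all 15096 tested genes as higher. Gldn, which encodes gliomedin of the node of Ranvier, had the smallest p, with 2.43, 2.71 and 4.22 CPM in Sost-/- against 1.30, 1.02 and 0.384 CPM in Sost+/+ (log2 fold change 1.78, SE 0.40, edgeR adjusted p = 0.0558). Egr2, the transcription factor gene that drives myelination, averaged 5.47 ± 1.46 CPM in Sost-/- and 6.14 ± 2.18 CPM in Sost+/+ (SD, n = 3 each), with overlapping groups and a log2 fold change of -0.16. The 6 most abundant members, Ndrg1, Lpar1, Mtmr2, Cnp, Mal and Cadm4, also serve other cell types and had log2 fold changes of 0.29, 0.13, 0.12, 0.25, 0.04 and -0.26.

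Other Schwann cell genes, among them those of immature and non-myelinating cells, gave no edgeR call either. All 24 were tested, 0 rose and 0 fell in edgeR, 20 had a log2 fold change above 0, and the median was 0.37. DESeq2 called 4 of the 24 as higher (Scn7a, Kcna2, Cadm2 and Ncam1), where it called 771 of all 15096 tested genes as higher. Scn7a, a sodium channel gene of non-myelinating Schwann cells, had 73.8, 97.6 and 88.7 CPM in Sost-/- and 63.2, 63.3 and 61.1 CPM in Sost+/+ (log2 fold change 0.47, SE 0.11, edgeR adjusted p = 0.0574). Ncam1, a neural adhesion gene that muscle also expresses, was at 0.65 (SE 0.20). Lgi4 and Apod had log2 fold changes of 0.23 and 0.33. The receptor gene Erbb3, through which Schwann cells receive neuregulin, averaged 12.0 ± 0.646 CPM in Sost-/- and 11.9 ± 2.06 CPM in Sost+/+ (SD, n = 3 each, log2 fold change 0.02, 95% interval -0.30 to 0.34). Without overlap, 9 of the 24 were higher and 2 lower in Sost-/-, where 14.3% and 11.1% of all tested genes were. The 2 lower were Cdh2 and Art3, the most abundant members, which heart muscle expresses. Their log2 fold changes of -0.33 and -0.27 did not pass. Over both lists of 46 genes, replicate 2 of Sost-/- held the highest level of 16 and replicate 3 of Sost+/+ the lowest of 19.

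**Figure D4:**
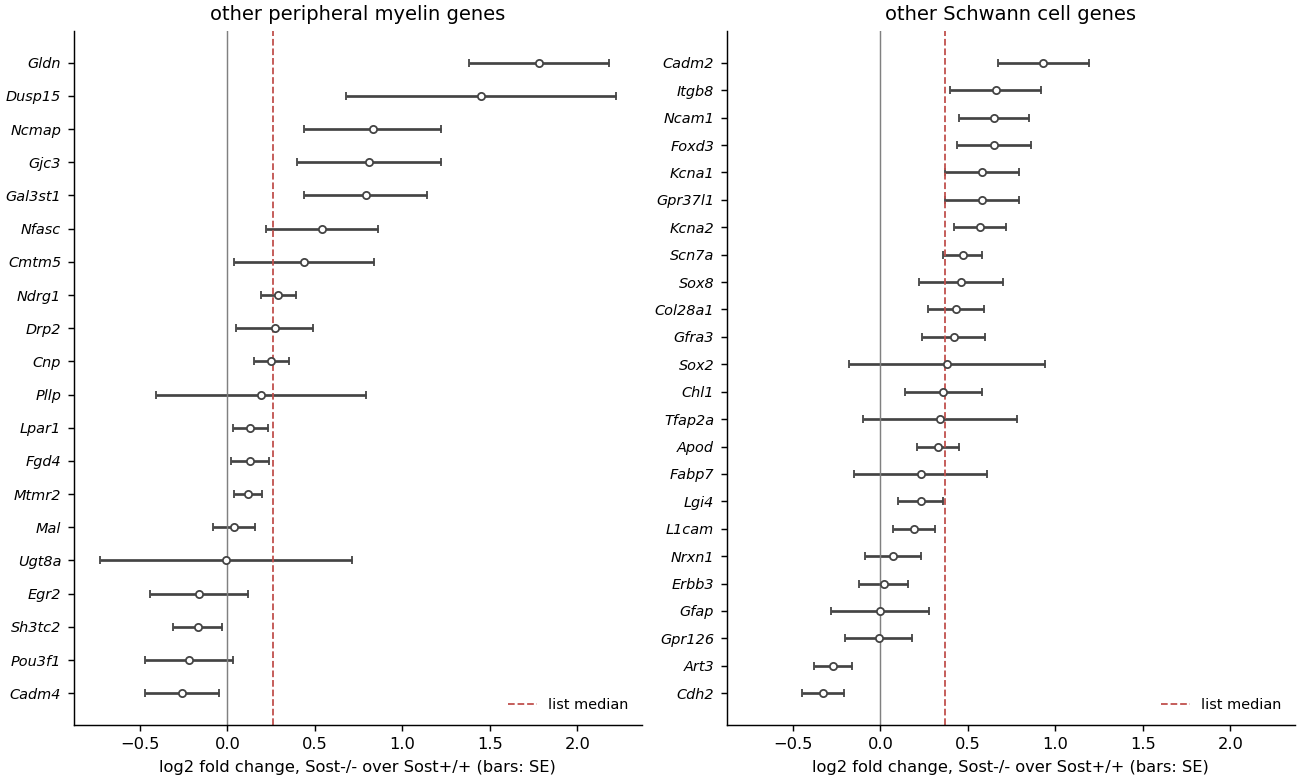
Log2 fold change, Sost-/- over Sost+/+ (horizontal axes), of 20 of the 22 tested other peripheral myelin genes (left) and 24 other Schwann cell genes (right), with SE bars and the median of the whole list as a dashed line. None passed the edgeR test; the medians are 0.26 and 0.37, and Gldn and Cadm2 lie farthest above 0 in their lists.

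Signals between axons and Schwann cells gave 1 call. Of 14 tested genes of the neuregulin and other Schwann cell signals, 1 rose and 0 fell, with a median of 0.09, where 2.18% of all tested genes rose. The gene that rose was Adam22, which encodes a receptor for the Schwann cell protein LGI4. It had 17.3, 15 and 17.5 CPM in Sost-/- and 7.78, 9.74 and 9.09 CPM in Sost+/+ (log2 fold change 0.91, SE 0.12, edgeR adjusted p = 0.0151). The groups were well apart, but the count of calls in this list was 0 without Sost-/- replicate 3 and 0 without Sost+/+ replicate 1. Of all tested genes, 10 and 0 passed in these 2 fits.

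The neurotrophin receptor genes Ntrk2 and Ntrk3 rose, while Ngfr did not pass. Of 16 neurotrophin and GDNF family genes, 2 rose and 0 fell (median 0.44), where 2.18% of all tested genes rose. Ntrk3, the receptor gene for neurotrophin NT3, had 36.8, 32.9 and 51.0 CPM in Sost-/- and 12.1, 18.7 and 7.47 CPM in Sost+/+ (log2 fold change 1.66, SE 0.29, edgeR adjusted p = 0.0265). Ntrk2, the receptor gene for BDNF, had 14.1, 25.3 and 22.9 CPM in Sost-/- against 9.13, 11.6 and 6.48 CPM in Sost+/+ (log2 fold change 1.19, SE 0.25, edgeR adjusted p = 0.0446). Each Sost-/- library exceeded each Sost+/+ library in both. Of the ligands, Ntf3 was at 8.25 ± 0.18 CPM in Sost-/- and 4.94 ± 1.05 CPM in Sost+/+ (SD, n = 3 each, edgeR adjusted p = 0.0558), whereas Bdnf had a log2 fold change of 0.01. Smooth muscle, which also expresses neurotrophin receptors, had a median marker log2 fold change of 1.55 in the same libraries, and its part was not tested. The list had 1 call without Sost-/- replicate 2, 0 without Sost-/- replicate 3, 0 without Sost+/+ replicate 1 and 1 without Sost+/+ replicate 3. Calls among all tested genes were 218, 10, 0 and 118 in the same order.

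**Figure D5:**
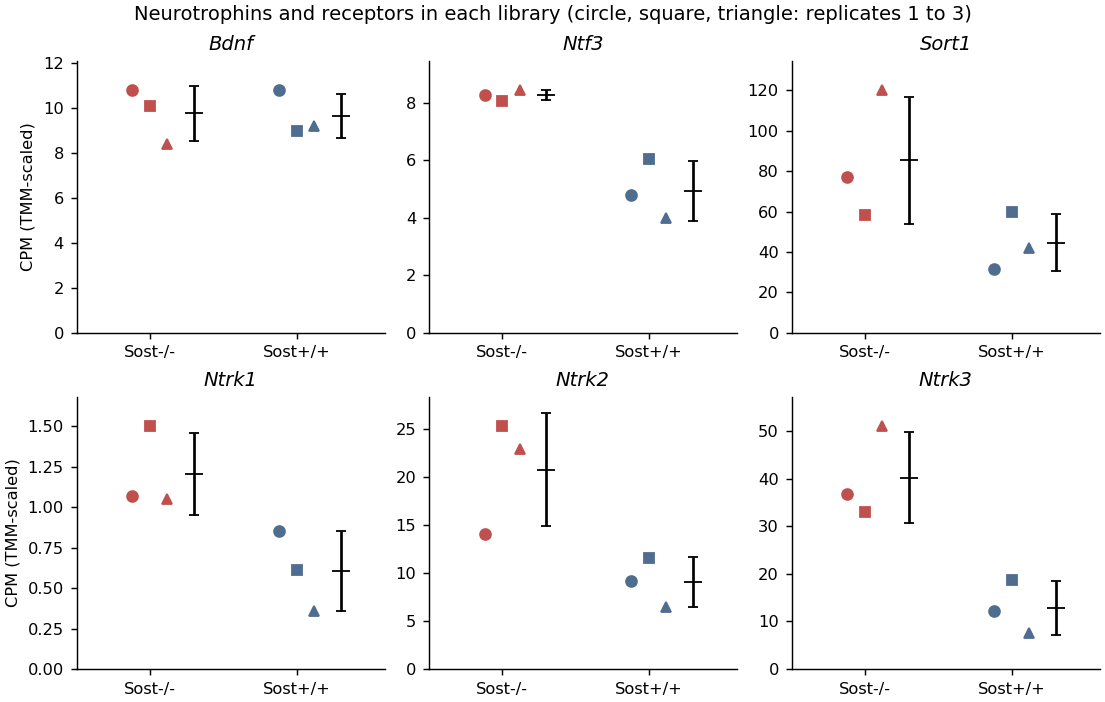
Level in CPM (TMM-scaled, vertical axes from 0) of neurotrophin genes and receptor genes in the 3 Sost-/- libraries (red) and the 3 Sost+/+ libraries (blue), with mean and SD in black. Ntrk2 and Ntrk3 passed the test, with all Sost-/- libraries above all Sost+/+ libraries, and Bdnf overlaps.

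Markers of the perineurium, the sheath around nerve bundles, gave no call and overlapped between groups in each case. All 6 had a log2 fold change above 0 (median 0.44), 0 passed, and their summed level was 82.6 to 103 CPM in Sost-/- and 63.3 to 83.9 CPM in Sost+/+. Of 6 pericyte markers, from cells around small vessels, 1 rose (Cspg4, log2 fold change 0.92, SE 0.17, edgeR adjusted p = 0.0279), where 2.18% of all tested genes rose. The median of the 6 was 0.21, and 5 had a log2 fold change above 0. Pdgfrb, Notch3, Abcc9 and Kcnj8 had log2 fold changes of 0.46, 0.25, 0.18 and 0.02, and Rgs5 -0.20.

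Autonomic neuron and axon genes showed no edgeR call, and several were too scarce to test. Th had 0, 4 and 3 counts in Sost-/- and 0, 1 and 0 in Sost+/+. Chat had 0, 0 and 3 counts in Sost-/- and 0 in each Sost+/+ library. Whether the amount of nerve fibre differed was not tested. Of 24 autonomic neuron and axon genes 19 were tested, 0 rose and 0 fell in edgeR, 13 had a log2 fold change above 0, and the median was 0.28. Their summed level was 176 to 208 CPM in Sost-/- and 176 to 214 CPM in Sost+/+, the largest part of it from Hand2, which heart and mesenchymal cells also express (105 ± 19.4 CPM in Sost-/- and 113 ± 15.8 CPM in Sost+/+, SD, n = 3 each). Slc18a2, the vesicular monoamine transporter gene, had the smallest p, with 1.66, 1.92 and 2.43 CPM in Sost-/- against 1.37, 1.02 and 0.714 CPM in Sost+/+ (log2 fold change 0.95, SE 0.30, edgeR adjusted p = 0.131). DESeq2 called 1 of the 19, the neuronal tubulin gene Tubb3, as lower (log2 fold change -0.58, adjusted p = 0.0474). It called 434 of all 15096 tested genes as lower.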

How the data were processed

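RNA of 6 aortic roots was sequenced from libraries made with a directional kit, per the labels' protocols. The deposited table holds whole-number counts per gene symbol. DRAGEN, HTSeq, DESeq2 and the build mm10 appear in the submitters' processing notes, with no versions; no source used here gives the annotation or the strand setting. The total count of each library, divided by the total of the authors' deposited normalized signal, gave a size factor of 0.891 to 1.089.

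Groups followed the genotype label. Replicate numbers follow accession order and pair nothing. Genes passing filterByExpr (minimum count 10, minimum total 15) went into the quasi-likelihood test of edgeR 4.0.16 (R 4.3.3) with TMM scaling and a threshold of 0.05. The SE is the log2 fold change divided by the square root of F. DESeq2 1.42.0 and limma 3.58.1 were alternatives, the deposited signal with a pseudocount of 1. Log2 CPM used a prior count of 2. Exon lengths came from GENCODE M21.

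Tested on simulated data for this comparison (15096 genes), the step recovered 23.9% of true log2 changes of 0.5, 76.1% of those of 1 and 95.5% of those of 2, with 12 false calls among 142.

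The 8 genes and all lists were chosen with earlier results of these data known. Named genes are the 8, up to 4 passing members of a list by p (otherwise the 1 of smallest p), the 6 most abundant of both glial lists and the 10 most alike genes. The rule by p was not followed for smooth muscle, fat, endothelial, fibroblast, lymphocyte and perineurium markers, whose selected genes are not named. Others named were picked after their values were seen. They include Egr2, Erbb3, Bdnf, Ntf3, Tubb3, Olig1, Cldn19 and those called by DESeq2. Fabp4, Mitf, Dct, Rgs5, Kcnj8, Myh6, Hand2 and further cell type markers are also among them. Results of some genes on the lists are not reported here. Older symbols served for Adgrg6 (Gpr126) and Cnmd (Lect1).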

Additional observations from a re-analysis of the deposited data

How the results depend on the processing

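No paired analysis was possible because the labels give no replicate numbers shared between the groups. Of the 8 genes, 7 kept a log2 fold change above 0 under all 14 alternatives. Mag, tested in 13, was at -0.24 without Sost-/- replicate 2, at -0.05 without Sost+/+ replicate 1 and at 0 to 2 decimals in limma on the deposited normalized values. Prx passed in 8 of 14 alternatives, with log2 fold changes from 0.66 to 0.93 and adjusted p from 0.00245 to 0.186. Cdh19 passed in 3 of 14 (0.50 to 0.71, adjusted p from 0.0142 to 0.313), and none of the other 6 passed in any.

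With total count scaling, which moved the median log2 fold change of all genes to 0.13, 2 of the 8 genes and 755 genes in all passed, 96.4% of them higher against 85.5% by TMM. DESeq2 called 2 of the 8 and 1205 in all (64.0% higher), and limma-voom called 0 of the 8. List calls under total count scaling and DESeq2 were 1 and 2 for other peripheral myelin genes, 2 and 4 for other Schwann cell genes, 3 and 2 for Schwann cell signals, 4 and 4 for neurotrophins and receptors, and for neuron genes 1 by DESeq2.

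Leaving out 1 library gave 0 to 2 calls among the 8 genes and 0 to 349 among all. At 0 calls in all (without Sost+/+ replicate 1), 2262 genes had an unadjusted p under 0.05, and without Sost-/- replicate 3 there were 10 calls. In the lists the ranges were 0 to 1 for other myelin genes, 0 to 2 for other Schwann cell genes, 0 to 1 for signals and 0 to 3 for neurotrophins and receptors. The difference between groups (Sost-/- minus Sost+/+) in the log2 ratio of Prx to glia was 0.39 without Mag and 0.66 without Cdh19 in the mean. The cause of these shifts was not tested. Depth limits Mag most, with at most 42 counts per library.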

Other observations

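Olig1, a transcription factor gene of the oligodendrocyte lineage, fell below the filter on low counts but separated the groups. It had 10, 26 and 15 counts in the Sost-/- libraries and 1, 1 and 1 in the Sost+/+ libraries. Summed over each group this is 51 against 3 counts, a ratio of 16.3 after scaling by library size, with an exact 95% interval of 5.28 to 81.8 that covers counting error only. Without the filter, edgeR gave an adjusted p of 0.0170 over 19772 genes. Olig1 was picked after its values were seen, and the central myelin genes Mobp and Opalin were at 0 in the same libraries.

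The tight-junction gene of myelin loops, Cldn19, also lay below the filter, with 5, 24 and 20 counts in Sost-/- and 2, 6 and 1 in Sost+/+, with overlapping groups (edgeR without the filter, adjusted p = 0.139).

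The 10 genes whose log2 CPM followed the mean of Mag, Sox10 and Cdh19 most closely over the 6 libraries, of 13500 genes ranked, were Zfp329, Gm1673, Top3b, Prodh, Apoc1, Slmo1, Mmd, Dcxr, 1600002K03Rik and Id3, with Pearson r from 0.980 to 0.997. None passed the genotype test, and none was on a glial list. With 6 points and Mag, the scarcest gene, varying most in that mean (a range of 1.28 in log2 CPM, against 0.48 for Sox10), this is a description only.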
